A study of Homo sapiens with 8 samples.

Results

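SBO05 is a population of HMLE cells, an immortalised line of human mammary epithelial cells, marked by 1 of 12 short barcoded oligonucleotides (SBOs) before pooling. Its cells carried far more VIM than the rest of its pool, and they differed among themselves in which mesenchymal genes they carried. Among the 1864 SBO05 cells of libraries 1 and 2, 270 were taken as a matrix state and 1102 as a CCN5 state, 1372 cells in all, out of 12718 kept cells of these libraries and 22147 of the series. The cells were chosen by their own counts of 12 genes. For each cell, the UMIs (captured transcript molecules) of POSTN, FBLN5, BGN, COL1A2, MGP and COL3A1 were added to a matrix sum, and those of CCN5, CLEC3B, CPA4, KCNMA1, LIN7A and CRISPLD2 to a CCN5 sum. A matrix-state cell had a matrix sum of at least 3 UMIs and at least 2 times its CCN5 sum, and a CCN5-state cell met the same limits the other way round. These gate genes are described without a test, and the states are compared in the other genes.

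The series was made to study intermediate states of the epithelial-to-mesenchymal transition (EMT) driven by the growth factor TGF-β, with and without pyridostatin, a compound that binds G-quadruplexes in DNA and RNA. No label ties a barcode to TGF-β, pyridostatin or a time, so the treatment of SBO05 is not known here, and both states come from the same barcoded sample. Libraries 1 and 2 are 2 loads of 1 pool, read by droplet sequencing from the 5′ end of transcripts. The p-values rest on how the groups in the fit deviated between these loads, beyond a shift shared by all groups. They do not measure spread between cultures. Genes that vary with the gate genes from cell to cell differ between the states by construction, so each difference describes association with the gate.

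In EMT, epithelial cells lose adhesion proteins such as E-cadherin and gain vimentin, cell motility and the ability to make extracellular matrix. The matrix of mesenchymal cells is built of fibrillar collagens, of proteoglycans and elastic-fibre proteins that organise them, and of enzymes that modify and crosslink them. Besides TGF-β, such cells respond to oxygen supply through hypoxia-inducible factors, to WNT ligands and their secreted inhibitors, and to mechanical load through actin and myosin.

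The barcode by which SBO05 cells were recognised is a designed 15-base oligonucleotide tag, shown because the assignment of every cell here rests on it.
SBO05: TGGTGACAAGTATCT
Matrix-state cells held medians of 1226 and 1013 UMIs of it in libraries 1 and 2, and CCN5-state cells 986 and 978. The next barcode of the pool had medians of 28 and 35 UMIs in the matrix state and 32 and 34 in the CCN5 state. No cell of either state had another barcode above SBO05. Cells were assigned to SBO05 by these same counts, so the values describe the choice and are not a check of it.

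The matrix state took 14.5% (exact 95% binomial interval 12.5 to 16.7%) and 14.4% (12.0 to 17.1%) of SBO05 cells in libraries 1 and 2, from 159 and 111 cells. The CCN5 state took 58.7% (55.7 to 61.7%) and 59.7% (56.1 to 63.2%), from 643 and 459 cells. The loads thus gave nearly the same division, and the intervals cover counting error only. Another 357 cells carried both sums without reaching the ratio and are called mixed cells, and 135 cells had under 3 UMIs of both sums and are called low cells. The shares rest on the gate: with KCNMA1 left out of it, 34.01% of SBO05 cells passed as matrix state and 36.4% as CCN5 state.

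Depth and quality were alike. Median UMIs per cell were 18187 and 22252 in the matrix state and 19279 and 23804 in the CCN5 state, and the median mitochondrial share was 1.56 and 1.49% in the matrix state and 1.47 and 1.41% in the CCN5 state. Low cells held fewer, 12307 and 13636 UMIs. The sums tested held 3122037 and 2558373 UMIs for the matrix state and 13727258 and 11443314 for the CCN5 state. Libraries 1 and 2 shared 116 cell barcodes, of which 11 lay in the CCN5 state and 0 in the matrix state.

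By the markers VIM, THY1, CDH2, ZEB2 and PRRX1, all outside the gate, both states were mesenchymal. FN1, another such marker, did not set them apart, since both lay within the 661 to 3148 CPM of the other populations of the pool. VIM, the intermediate filament vimentin, stood at 3215 and 2994 CPM (UMIs of a gene per 1e6 UMIs of a sum) in the matrix state and 3226 and 3318 CPM in the CCN5 state, against 260.5 to 307 CPM in SBO01 to SBO04 and SBO06, the other populations of the pool. The states differed by less than the spread between libraries, with a log2 fold change of -0.07 ± 0.11 (SE, matrix over CCN5 state, edgeR adjusted p = 0.74). That direction turned to 0.40 with a smaller gate of 6 genes (adjusted p = 0.0022) and to 0.43 with KCNMA1 left out of the gate (adjusted p = 0.00078), and both passed. THY1, a surface glycoprotein of mesenchymal cells, reached 322 and 294 CPM in the matrix state and 258 and 285 CPM in the CCN5 state, and its difference did not pass (adjusted p = 0.12). CDH2, the gene of N-cadherin, was lower in the matrix state, at 38.8 and 34.4 CPM against 45.8 and 51.8 CPM in the CCN5 state (-0.40 ± 0.11, adjusted p = 0.019), and both lay above the 2.88 to 14.3 CPM of the other populations. CDH1, the gene of E-cadherin, was low in both, at 4.80 and 7.82 CPM in the matrix state and 10.2 and 6.90 CPM in the CCN5 state, against 49.4 to 100.8 CPM elsewhere in the pool. EPCAM, an epithelial adhesion molecule, stood at 20.8 and 21.5 CPM in the matrix state and 34.5 and 17.0 CPM in the CCN5 state, against 236 to 322 CPM. Neither CDH1 nor EPCAM passed the test between the states.

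Defining markers of most other cell types were at or near 0. Of 11 leukocyte markers, 6 were at 0 in all 4 state sums, PTPRC, CD3E and MS4A1 among them, and the list summed to 24.3 and 19.2 CPM in the matrix state and 48.1 and 48.9 CPM in the CCN5 state, most of it CD68. The 8 endothelial markers summed to 24.7 and 30.9 CPM in the matrix state and 29.3 and 22.4 CPM in the CCN5 state, nearly all of it EGFL7, and 7 of them stayed under 5 CPM throughout. The 10 markers of tissue fibroblasts summed to 42.0 and 48.9 CPM in the matrix state and 12.5 and 9.87 CPM in the CCN5 state, with SCARA5 at 0 throughout. The 8 pericyte markers summed to 18.3 and 23.1 CPM in the matrix state and 10.6 and 13.6 CPM in the CCN5 state, the 8 adipocyte markers to 26.3 and 13.3 CPM in the matrix state and 26.5 and 21.6 CPM in the CCN5 state, and the 12 bone and cartilage markers to 41.3 and 47.3 CPM in the matrix state and 55.9 and 54.5 CPM in the CCN5 state. The 8 neural markers summed to 260.4 and 277 CPM in the matrix state and 320.5 and 337 CPM in the CCN5 state, within the 193 to 343 CPM of the other populations. Those populations held 13.5 to 32.5 CPM of leukocyte, 39.6 to 75.8 CPM of endothelial and 31.5 to 91.8 CPM of fibroblast markers. They held 4.96 to 10.1 CPM of pericyte, 20.9 to 49.7 CPM of adipocyte and 99.3 to 117.7 CPM of bone and cartilage markers. The CCN5 state was thus above them in leukocyte markers and below them in fibroblast markers. Both states were above them in pericyte markers and below them in endothelial and in bone and cartilage markers. LUM, the proteoglycan lumican and a usual fibroblast gene, stood at 1.28 and 0.391 CPM in the matrix state and 0.146 and 0 CPM in the CCN5 state. The part of such cells in the differences below was not tested.

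The gate genes differed in how sharply they parted the states. These values chose the cells and are given as a description. POSTN, the matricellular protein periostin, stood at 219 and 213 CPM in the matrix state and 7.14 and 5.68 CPM in the CCN5 state. MGP, a calcification inhibitor, reached 465 and 489 CPM in the matrix state and 6.92 and 4.98 CPM in the CCN5 state. BGN, the proteoglycan biglycan, was shared more, at 309 and 354 CPM in the matrix state and 45.1 and 50.2 CPM in the CCN5 state. COL1A2, a chain of type I collagen, stood at 98.3 and 122 CPM in the matrix state and 9.40 and 8.30 CPM in the CCN5 state. FBLN5, an elastic-fibre protein, was at 149 and 181 CPM in the matrix state and 8.30 and 8.65 CPM in the CCN5 state. COL3A1, of type III collagen, was at 42.0 and 41.8 CPM in the matrix state and 2.70 and 3.06 CPM in the CCN5 state. MGP was carried by fewer cells than BGN: at 10000 UMIs per cell, 47.1 and 42.7% of matrix-state cells had an MGP UMI and 81.3 and 84.5% a BGN UMI.

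The CCN5 gate parted the states less. KCNMA1, the pore subunit of a calcium-activated potassium channel, gave 64.0 and 58.8% of the CCN5 sum in the CCN5 state, at 494 and 489 CPM, and was still at 154 and 129 CPM in the matrix state. CCN5, a matricellular protein, stood at 13.8 and 15.2 CPM in the matrix state and 50.1 and 62.7 CPM in the CCN5 state. CPA4, a carboxypeptidase, was at 39.4 and 37.5 CPM in the matrix state and 141 and 173 CPM in the CCN5 state. CLEC3B, the plasminogen-binding protein tetranectin, differed little, with 22.4 and 16.4 CPM in the matrix state and 27.8 and 35.7 CPM in the CCN5 state. LIN7A, a scaffold protein, and CRISPLD2, a secreted protein, were under 15 CPM in the matrix state and between 18.3 and 48.3 CPM in the CCN5 state. Other populations also passed this gate: 9.22% of their cells met the CCN5 limits and 1.81% the matrix limits, and KCNMA1 gave 61.0 and 60.1% of the sum in the cells that met the CCN5 limits.

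When the gate was made from POSTN, FBLN5, BGN, CCN5, CLEC3B and CPA4 alone, the counts of the other 6 gate genes did not choose the cells. The gene sets of the gate were chosen with earlier results of these data known. These 6 genes are thus not an independent check of the states, and their values are given as a description. MGP then stood at 182 and 212 CPM in the matrix state and 13.9 and 2.55 CPM in the CCN5 state, and COL1A2 at 59.3 and 86.3 CPM in the matrix state and 8.66 and 8.51 CPM in the CCN5 state. LIN7A was at 19.2 and 17.8 CPM in the matrix state and 51.2 and 55.5 CPM in the CCN5 state. KCNMA1 came close, with 378 and 353 CPM in the matrix state and 485 and 449 CPM in the CCN5 state. All of these pairs kept the order of the full gate, which their shared sets made likely, and no test was run on them. Nothing is read from that order.

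Cells were spread between the states. Of the SBO05 cells with at least 3 gate UMIs, 38.2 and 40.9% had under 0.1 of these UMIs from matrix genes, and every further step of 0.1 held 3.59 to 11.4% of the cells; the highest step held 3.59 and 4.22%. Near the limits, 72 matrix-state cells had a matrix sum of 2 to under 3 times the CCN5 sum, and 67 mixed cells lay just outside, at 1.5 to under 2 times. On the other side 120 CCN5-state cells lay just inside and 68 mixed cells just outside.

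**Figure D1:**
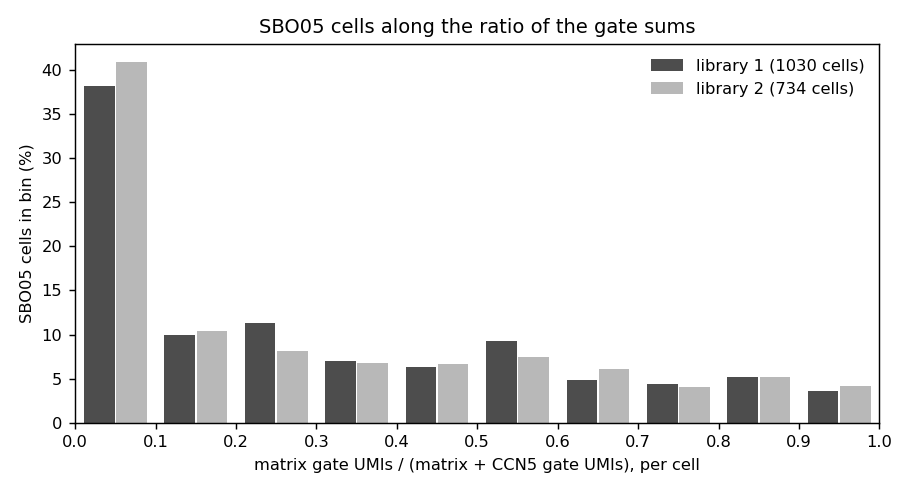
Share of SBO05 cells (%, vertical axis) in each step of 0.1 of the ratio of matrix gate UMIs to all gate UMIs (horizontal axis), for cells with at least 3 gate UMIs, with dark bars for library 1 and light bars for library 2. The lowest step, nearest the CCN5 end, holds 38.2 and 40.9% of the cells, and no step above it holds more than 11.4%.

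Outside the gate, matrix-state cells carried more transcripts of type I and VI collagen, of the growth-factor binding protein IGFBP2 and of the actin-binding protein TAGLN, and fewer of the hypoxia genes CA9 and BNIP3, of the WNT inhibitors DKK1 and SFRP1 and of the imprinted genes MEST and PEG10. Of 14453 genes tested with edgeR (quasi-likelihood test, blocked by library), 1146 (7.93%) were higher and 1050 (7.26%) lower in the matrix state at an adjusted p under 0.05. A difference of at least 0.5 on the log2 scale was found for 575 (3.98%) higher and 381 (2.64%) lower genes. The median over all genes tested was -0.01. These counts rest on the gate and the depth: 4596 genes were called with KCNMA1 left out of the gate, 4401 with the smaller gate of 6 genes and 1278 with every cell thinned to 10000 UMIs, against 2196 here.

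**Figure D2:**
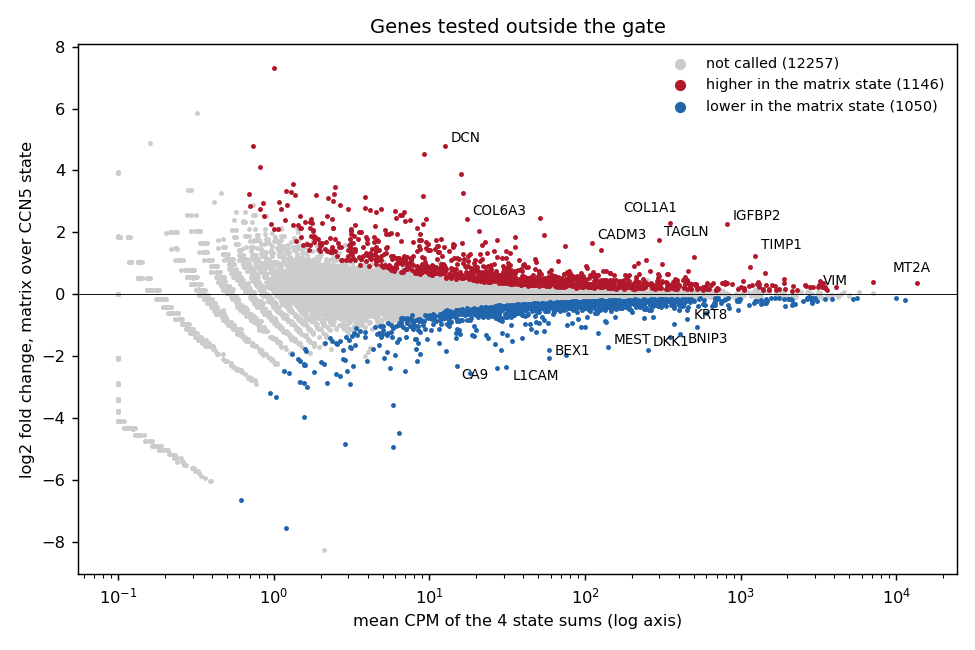
Log2 fold change of the matrix state over the CCN5 state (vertical axis) against the mean CPM of the 4 state sums (horizontal log axis, with means under 0.1 drawn at 0.1) for the 14453 genes tested, coloured by call. Genes higher in the matrix state number 1146 and genes lower number 1050, and VIM, called in neither direction, lies near 0.

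Collagens were higher in the matrix state as a group. Of 18 collagen genes tested, 10 were higher and 1 lower, with a median log2 fold change of 0.51, where 7.93% of all genes were higher. COL1A1, the partner chain of COL1A2 in type I collagen (chr17:50183289-50201632, GRCh38), stood at 486 and 679.7 CPM in the matrix state and 106 and 128 CPM in the CCN5 state. The states did not overlap, as in 53.8% of all genes tested, and the log2 fold change was 2.31 ± 0.07 (adjusted p = 5.0e-16). The other populations held 14.9 to 28.2 CPM, so the CCN5 state lay above them as well. COL6A3, of the beaded filaments of type VI collagen, stood at 24.3 and 34.4 CPM in the matrix state and 5.25 and 5.59 CPM in the CCN5 state (2.43 ± 0.18, adjusted p = 1.3e-09). Its partner COL6A1 differed less, at 67.6 and 91.1 CPM in the matrix state and 50.9 and 56.5 CPM in the CCN5 state (0.56 ± 0.12, adjusted p = 0.0027). COL8A1, of a network collagen of vessel walls, was at 189 and 181 CPM in the matrix state and 63.9 and 74.5 CPM in the CCN5 state, a log2 fold change of 1.44 ± 0.15 (adjusted p = 2.9e-07). COL5A1, which starts type I fibrils, was at 32.0 and 44.6 CPM in the matrix state and 22.9 and 30.8 CPM in the CCN5 state. Its call (0.51 ± 0.15, adjusted p = 0.021) turned to -0.31 with the smaller gate and to -0.22 without KCNMA1 in the gate. The 1 lower collagen, COL13A1, a transmembrane collagen, was scarce, at 1.60 and 0.391 CPM in the matrix state and 4.23 and 4.98 CPM in the CCN5 state.

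Of the 41 proteoglycans and matrix glycoproteins tested, 21 were higher and 6 lower, with a median of 0.44, where 7.93% of all genes were higher and 7.26% lower. DCN, the collagen-binding proteoglycan decorin, had the largest log2 fold change of the list, with 23.4 and 25.4 CPM in the matrix state and 1.02 and 0.699 CPM in the CCN5 state (4.79 ± 0.37, adjusted p = 3.7e-09). It was carried by a minority: 17.4 and 17.5% of matrix-state cells thinned to 10000 UMIs had a DCN UMI, against 0.997 and 0.457% of CCN5-state cells, and 0.112 and 0.964% of SBO01 cells, which served as the level where the gene should be absent. VCAN, the large proteoglycan versican, was at 14.7 and 8.60 CPM in the matrix state and 2.26 and 2.36 CPM in the CCN5 state (2.38 ± 0.35, adjusted p = 3.6e-05). SDC2, a cell-surface proteoglycan, was at 12.5 and 8.21 CPM in the matrix state and 2.11 and 1.66 CPM in the CCN5 state (2.46 ± 0.32, adjusted p = 8.4e-06). MFAP2, of elastic microfibrils, stood at 82.0 and 91.1 CPM in the matrix state and 25.1 and 20.9 CPM in the CCN5 state, a log2 fold change of 1.90 ± 0.11 (adjusted p = 4.3e-11). LTBP2, which binds fibrillin, was at 30.4 and 35.2 CPM in the matrix state and 9.03 and 12.8 CPM in the CCN5 state (1.60 ± 0.14, adjusted p = 4.0e-08). SPOCK1, the proteoglycan testican, was at 56.4 and 55.5 CPM in the matrix state and 16.4 and 14.4 CPM in the CCN5 state (1.86 ± 0.15, adjusted p = 3.7e-09). None of these 6 genes overlapped between the states, as in 53.8% of all genes tested.

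Fibronectin and SPARC differed less than COL1A1. FN1, the gene of fibronectin, stood at 1304 and 1669 CPM in the matrix state and 796 and 838 CPM in the CCN5 state (0.86 ± 0.06, adjusted p = 1.9e-10), within the 661 to 3148 CPM of the other populations. SPARC, a collagen-binding matricellular protein, was at 842 and 866 CPM in the matrix state and 627 and 722 CPM in the CCN5 state (0.35 ± 0.06, adjusted p = 9.2e-05). That direction turned to -0.10 with the smaller gate and to -0.015 without KCNMA1 in the gate. The members lower in the matrix state were FBLN2, MATN2, SDC1, TNC, SRPX2 and SDC4. TNC, the matricellular protein tenascin-C, was at 19.2 and 21.9 CPM in the matrix state and 34.6 and 41.8 CPM in the CCN5 state (-0.88 ± 0.14, adjusted p = 6.9e-05). SDC1, a syndecan of epithelial surfaces, was at 21.5 and 23.1 CPM in the matrix state and 41.5 and 47.0 CPM in the CCN5 state (-0.98 ± 0.13, adjusted p = 1.2e-05).

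Genes that process collagen were higher in 12 of 22 cases and lower in 2, with a median of 0.27, where 7.93% of all genes were higher and 7.26% lower. PCOLCE, which enhances removal of the procollagen tail, stood at 47.4 and 43.0 CPM in the matrix state and 17.0 and 17.5 CPM in the CCN5 state (1.41 ± 0.16, adjusted p = 1.7e-06). BMP1, the protease it assists, was at 51.2 and 56.3 CPM in the matrix state and 27.0 and 31.4 CPM in the CCN5 state (0.89 ± 0.10, adjusted p = 9.7e-07). LOX, the collagen crosslinking oxidase, reached 26.9 and 40.7 CPM in the matrix state and 22.7 and 25.1 CPM in the CCN5 state (0.49 ± 0.16, adjusted p = 0.036). All 3 were higher in the matrix state, PCOLCE the most, in both libraries. TIMP1, an inhibitor of matrix proteases, stood at 1823 and 1645 CPM in the matrix state and 754 and 744 CPM in the CCN5 state (1.22 ± 0.06, adjusted p = 2.5e-12). MMP2, a gelatinase, was at 33.3 and 23.5 CPM in the matrix state and 13.2 and 14.3 CPM in the CCN5 state (1.08 ± 0.18, adjusted p = 0.00017). Of 25 proteases and inhibitors tested, 6 were higher and 3 lower, beside the same shares of all genes. Of 15 integrins and collagen receptors, 4 were higher, ITGA4, ITGB5, ITGAV and ITGB1, and 1 was lower, DDR1, which was also higher in the other populations (45.1 to 50.4 CPM) than in either state (under 13 CPM). Laminins LAMA1, LAMB2 and LAMC1 were the 3 higher genes among 11 of the basement membrane, where none was lower.

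**Figure D3:**
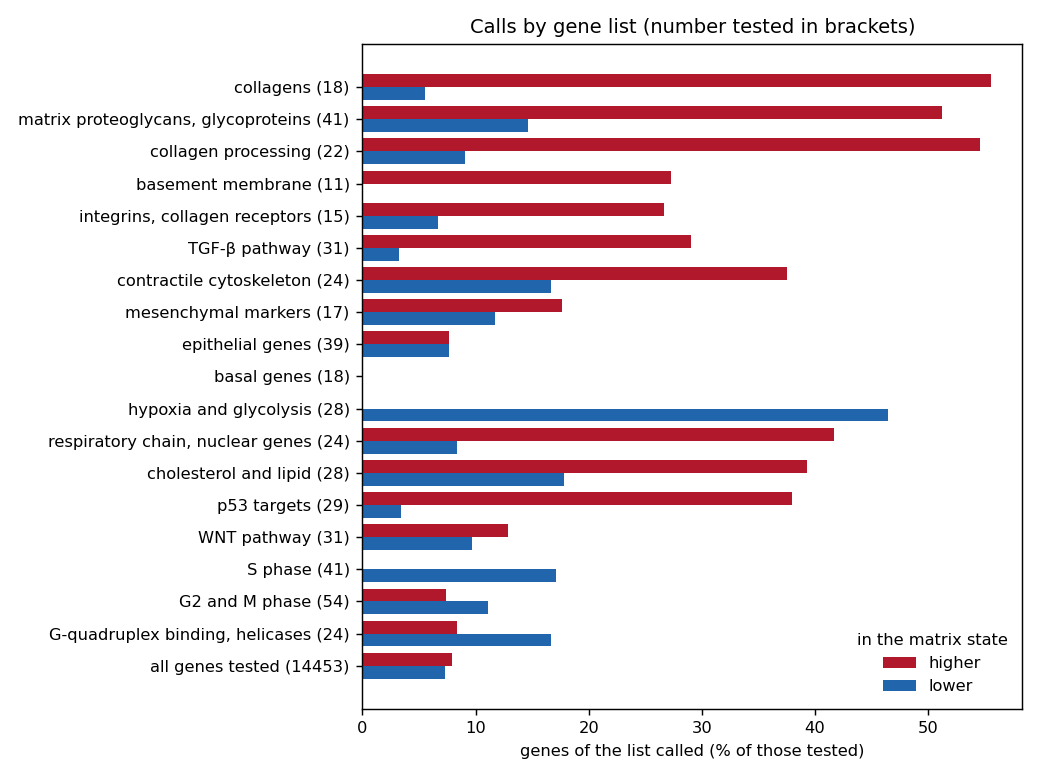
Percentage of the tested genes of 18 lists, and of all 14453 genes tested (bottom row), called higher (red) or lower (blue) in the matrix state, with the number tested in brackets. Matrix lists stand at the top with 10 of 18 collagens higher, and hypoxia and glycolysis genes show 13 of 28 lower and none higher.

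Among contractile genes, 9 of 24 were higher and 4 lower, with a median of 0.13, where 7.93% of all genes were higher and 7.26% lower. TAGLN, transgelin, which binds actin in smooth muscle, stood at 388 and 530.4 CPM in the matrix state and 147 and 123 CPM in the CCN5 state (1.75 ± 0.12, adjusted p = 6.0e-10). ACTA2, smooth muscle actin, was scarce, at 14.1 and 12.9 CPM in the matrix state and 3.13 and 3.06 CPM in the CCN5 state (2.13 ± 0.28, adjusted p = 7.9e-06), and 9.03 and 11.7% of thinned matrix-state cells had a UMI of it, against 4.82 and 2.05% of CCN5-state cells and 1.79 and 1.65% of SBO01 cells. MYL9, a myosin light chain, was at 254 and 335 CPM in the matrix state and 153 and 138 CPM in the CCN5 state (1.01 ± 0.10, adjusted p = 1.2e-07). These genes were thus higher in the matrix state in both libraries, while the kinase of that light chain went the other way. MYLK, myosin light chain kinase, stood at 14.7 and 10.9 CPM in the matrix state and 28.3 and 38.0 CPM in the CCN5 state (-1.32 ± 0.19, adjusted p = 2.4e-05). FLNC, a filamin, was at 11.9 and 13.3 CPM in the matrix state and 23.0 and 28.8 CPM in the CCN5 state (-1.03 ± 0.16, adjusted p = 6.1e-05). ACTG2 is counted among the 9, but 60.7% of its matrix-state UMIs in library 2 came from 1 cell, and its log2 fold change was 0.44 in library 1 alone.

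In the TGF-β pathway 9 of 31 genes were higher and 1 lower, with a median of 0.17, where 7.93% of all genes were higher and 7.26% lower. The ligand TGFB1 stood at 117 and 148 CPM in the matrix state and 73.8 and 74.6 CPM in the CCN5 state (0.83 ± 0.08, adjusted p = 6.1e-08). The receptor TGFBR1 was at 9.93 and 8.99 CPM in the matrix state and 9.62 and 9.70 CPM in the CCN5 state, and did not pass. LTBP1, which holds the latent ligand in the matrix, was at 58.0 and 43.4 CPM in the matrix state and 23.4 and 24.9 CPM in the CCN5 state (1.10 ± 0.16, adjusted p = 4.1e-05). Of the targets, PMEPA1, a feedback inhibitor, was at 30.1 and 31.3 CPM in the matrix state and 18.4 and 19.0 CPM in the CCN5 state (0.72 ± 0.13, adjusted p = 0.00028). TGFBI, SMAD7 and CCN1 did not pass, and CCN2, a matricellular target, passed at 0.41 ± 0.08 (adjusted p = 0.0010) with 173 and 223 CPM in the matrix state and 144 and 153 CPM in the CCN5 state, but stood at -0.072 with the smaller gate and -0.041 without KCNMA1 in the gate.

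The EMT transcription factors did not follow the matrix genes as a group, with 3 of 20 higher, 2 lower and a median of -0.06. Of all genes, 7.93% were higher and 7.26% lower. PRRX1, a homeobox factor of mesenchyme, was higher, at 18.3 and 15.2 CPM in the matrix state and 5.39 and 6.29 CPM in the CCN5 state (1.55 ± 0.26, adjusted p = 0.00017). ZEB2 stood at 19.2 and 12.5 CPM in the matrix state and 15.6 and 15.9 CPM in the CCN5 state, and TWIST1 at 36.8 and 38.3 CPM in the matrix state and 36.9 and 39.3 CPM in the CCN5 state. Neither passed, nor did ZEB1 or SNAI2, which are EMT repressors of E-cadherin. ZEB1 had only 5.45 and 2.35 CPM in the matrix state and 4.74 and 6.12 CPM in the CCN5 state. SNAI1, another factor of this list, was scarce but passed as higher in the matrix state (1.14 ± 0.32, adjusted p = 0.017). It stood at 5.45 and 10.6 CPM in the matrix state and 3.497 and 3.583 CPM in the CCN5 state. Of 17 mesenchymal markers tested 3 were higher and 2 lower, with a median of -0.07. FAP, a protease of activated fibroblasts, stood at 25.9 and 23.1 CPM in the matrix state and 8.23 and 7.25 CPM in the CCN5 state (1.67 ± 0.18, adjusted p = 7.8e-07). CDH11, a cadherin of mesenchyme, was at 11.9 and 8.99 CPM in the matrix state and 1.67 and 1.57 CPM in the CCN5 state (2.69 ± 0.30, adjusted p = 1.2e-06). CD44, a receptor of hyaluronan, was lower, at 108 and 105 CPM in the matrix state and 147 and 148 CPM in the CCN5 state (-0.46 ± 0.07, adjusted p = 7.3e-05), as was CDH2.

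Several secreted and surface proteins were among the 15 genes highest in the matrix state. IGFBP2, which binds insulin-like growth factors, stood at 1352 and 1374 CPM in the matrix state, 1021 and 1175 CPM in mixed cells and 290.9 and 274 CPM in the CCN5 state, a log2 fold change of 2.28 ± 0.10 between the states (adjusted p = 1.8e-13). IGFBP7, of the same family, was at 704 and 688 CPM in the matrix state and 292 and 311 CPM in the CCN5 state (1.22 ± 0.07, adjusted p = 6.4e-11). IGFBP4 was at 1022 and 1011 CPM in the matrix state and 856 and 938 CPM in the CCN5 state and did not pass (0.19 ± 0.08, adjusted p = 0.14). CADM3, a cell adhesion molecule of the nervous system, was at 174 and 160.3 CPM in the matrix state and 49.4 and 57.6 CPM in the CCN5 state (1.66 ± 0.10, adjusted p = 4.3e-11), and the other populations held only 2.41 to 5.42 CPM. CADM3 was thus an SBO05 gene that was higher still in the matrix state, as was HHIP, an inhibitor of hedgehog ligands, at 38.1 and 37.5 CPM in the matrix state and 14.5 and 14.1 CPM in the CCN5 state (1.41 ± 0.15, adjusted p = 4.2e-07). NPW, a precursor of neuropeptide W, was at 47.1 and 58.6 CPM in the matrix state and 18.6 and 18.0 CPM in the CCN5 state (1.52 ± 0.13, adjusted p = 2.4e-08).

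Protease inhibitors and a lipid carrier were also among the 15 genes highest in the matrix state. SERPINA3, antichymotrypsin, stood at 32.7 and 34.4 CPM in the matrix state and 9.83 and 6.12 CPM in the CCN5 state (2.05 ± 0.24, adjusted p = 1.4e-06). CST6, cystatin M, was at 109 and 112 CPM in the matrix state and 43.8 and 30.5 CPM in the CCN5 state (1.57 ± 0.11, adjusted p = 4.2e-10). SERPINA1, antitrypsin, was at 50.9 and 32.1 CPM in the matrix state and 13.8 and 11.2 CPM in the CCN5 state (1.75 ± 0.18, adjusted p = 3.6e-07). The states did not overlap, as in 53.8% of all genes tested, but for SERPINA1, APOE, CST6 and LTBP2 the CCN5 state was also below every other population, which held 38.0 to 46.9 CPM of SERPINA1 and 61.8 to 358 CPM of CST6. APOE, the lipid carrier apolipoprotein E, was at 23.1 and 46.5 CPM in the matrix state and 11.5 and 9.61 CPM in the CCN5 state (1.67 ± 0.20, adjusted p = 3.0e-06), against 30.3 to 59.9 CPM in the other populations. In all, the matrix state was above every other population in 11 of these 15 genes and the CCN5 state in 6. GDF15 is among the 11, with 66.5% of its matrix-state UMIs in library 1 from 1 cell. The 15 genes were chosen for being higher in the matrix state than in the CCN5 state. No share over all genes was computed, so nothing is read from these counts.

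**Figure D4:**
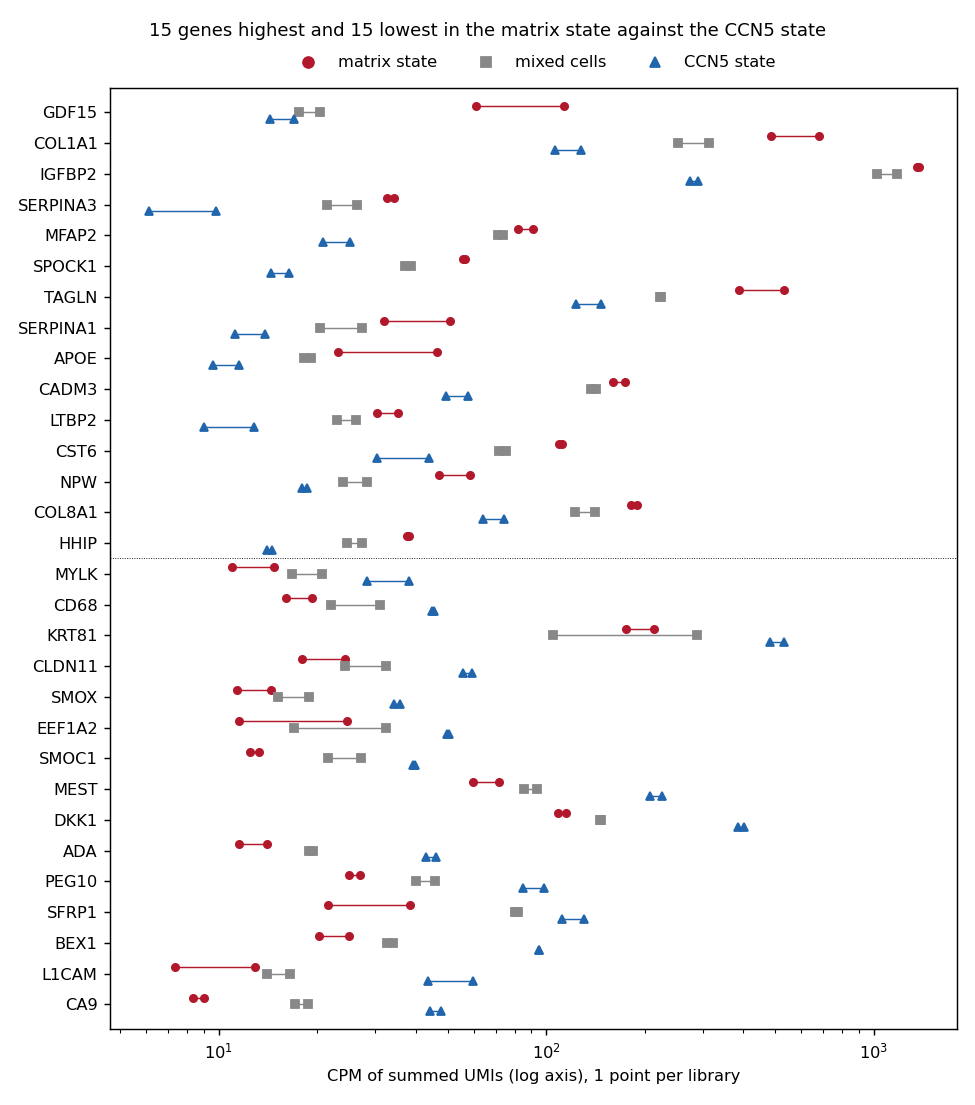
Level in CPM (horizontal log axis) of the 15 genes highest (above the dotted line) and the 15 lowest in the matrix state, with 1 point per library for the matrix state (red circles), mixed cells (grey squares) and the CCN5 state (blue triangles). The states do not overlap in any of the 30 genes, which the choice of genes nearly fixed, as in 53.8% of all genes tested. Mixed cells lie between them in both libraries in 27, which the choice of genes and the gate made likely.

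Genes lower in the matrix state were led by CA9, a carbonic anhydrase of the cell surface induced by low oxygen. CA9 stood at 8.33 and 8.99 CPM in the matrix state and 44.3 and 47.6 CPM in the CCN5 state, a log2 fold change of -2.40 ± 0.18 (adjusted p = 1.6e-09). The other populations, at 9.34 to 17.7 CPM, were above the matrix state and below the CCN5 state. A UMI of CA9 was found in 5.81 and 5.83% of matrix-state cells and 26.1 and 29.5% of CCN5-state cells at equal depth, and in 11.3 and 10.6% of SBO01 cells. Of 28 hypoxia and glycolysis genes, 13 were lower and 0 higher in the matrix state, with a median of -0.31, where 7.26% of all genes were lower. BNIP3, a mitophagy receptor, was at 257 and 212 CPM in the matrix state and 556 and 604 CPM in the CCN5 state (-1.29 ± 0.07, adjusted p = 2.3e-11). ADM, the vessel-active peptide adrenomedullin, was at 25.0 and 34.01 CPM in the matrix state and 70.4 and 65.0 CPM in the CCN5 state (-1.21 ± 0.11, adjusted p = 7.4e-08). VEGFA, the vascular growth factor, was at 10.2 and 14.9 CPM in the matrix state and 19.5 and 24.9 CPM in the CCN5 state (-0.83 ± 0.17, adjusted p = 0.0012). These 4 genes had the largest differences of the list, and both states held more BNIP3 than the other populations (94.7 to 136 CPM).

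The glycolytic enzymes were lower by less. PGAM1 stood at 769.7 and 805 CPM in the matrix state and 1075 and 1176 CPM in the CCN5 state (-0.51 ± 0.04, adjusted p = 1.4e-08). ENO1 was at 1853 and 1885 CPM in the matrix state and 2283 and 2484 CPM in the CCN5 state (-0.34 ± 0.04, adjusted p = 9.7e-07), and PGK1 at 594 and 607 CPM in the matrix state and 742 and 793 CPM in the CCN5 state (-0.35 ± 0.04, adjusted p = 7.3e-06). None of these overlapped, as in 53.8% of all genes tested. The glucose transporter SLC2A1, at 28.8 and 30.1 CPM in the matrix state and 31.3 and 31.6 CPM in the CCN5 state (adjusted p = 0.69), and LDHA, at 2061 and 1980 CPM in the matrix state and 2208 and 2246 CPM in the CCN5 state (adjusted p = 0.062), did not pass. Genes of the respiratory chain encoded in the nucleus were higher in 10 of 24 cases and lower in 2, with a median of 0.10, where 7.93% of all genes were higher and 7.26% lower. UQCRB, of complex III, was at 514 and 519 CPM in the matrix state and 413 and 369.6 CPM in the CCN5 state (0.41 ± 0.05, adjusted p = 7.5e-06). Of the 13 genes of the mitochondrial genome 5 were higher and 0 lower, with MT-CO3 at 0.27 on the log2 scale.

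Hypoxia-inducible factors bind a short core that includes the letters ACGTG, so the promoters of the leading genes of this list are shown, as the 250 bases before the RefSeq transcription start (GRCh38.p14, 5′ to 3′ on the gene's strand), with ACGTG, its reverse complement CACGT or both where they overlap in capitals. CA9 lies at chr9:35673678-35673927 on the plus strand and BNIP3 at chr10:131981924-131982173 on the minus strand.
CA9: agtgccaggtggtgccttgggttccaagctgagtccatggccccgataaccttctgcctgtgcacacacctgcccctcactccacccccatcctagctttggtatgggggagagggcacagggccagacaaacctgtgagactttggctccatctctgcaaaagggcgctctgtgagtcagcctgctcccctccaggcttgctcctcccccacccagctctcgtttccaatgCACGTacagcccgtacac
BNIP3: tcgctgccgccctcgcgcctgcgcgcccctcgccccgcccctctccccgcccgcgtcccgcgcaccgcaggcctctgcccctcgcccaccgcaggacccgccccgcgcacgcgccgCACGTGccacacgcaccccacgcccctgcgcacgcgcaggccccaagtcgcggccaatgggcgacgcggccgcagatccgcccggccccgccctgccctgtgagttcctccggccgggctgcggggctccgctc
The match in CA9 begins 18 bases before the start and that in BNIP3 134 bases before it, where both forms overlap. ADM, which was also lower, holds no match in this window. Over both strands of the whole 300-base window, ACGTG was found in 5 of 12 matched promoters of the list's lower genes, in 6 of 13 of its other genes, in 25.3% of the 277 matched genes lower by at least 0.5 and in 26.3% of the 10772 matched genes tested. The shares of the list's lower and other genes were alike, and such matches describe these windows only.

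The WNT inhibitors DKK1 and SFRP1 were lower in the matrix state. DKK1, a secreted antagonist of the WNT coreceptors, stood at 115 and 109 CPM in the matrix state and 385 and 401 CPM in the CCN5 state, a log2 fold change of -1.80 ± 0.07 (adjusted p = 9.6e-15). The matrix state was close to the 113 to 157 CPM of the other populations, and the CCN5 state lay above them. SFRP1, which binds WNT ligands, was at 38.4 and 21.5 CPM in the matrix state and 130.1 and 111 CPM in the CCN5 state (-1.97 ± 0.16, adjusted p = 7.9e-09), but here the other populations held 125 to 269 CPM. Of 31 WNT genes tested, 3 were lower and 4 higher, where 7.26% of all genes were lower and 7.93% higher, so nothing is read from these counts. Among the higher ones was the ligand WNT5B, at 16.02 and 14.9 CPM in the matrix state and 8.38 and 8.48 CPM in the CCN5 state (0.89 ± 0.18, adjusted p = 0.0015). Since the series concerns G-quadruplexes, the promoter of DKK1 (chr10:52314031-52314280, plus strand) is shown with the letters that fit a quadruplex, 4 runs of at least 3 C with 1 to 7 bases between runs, in capitals.
DKK1: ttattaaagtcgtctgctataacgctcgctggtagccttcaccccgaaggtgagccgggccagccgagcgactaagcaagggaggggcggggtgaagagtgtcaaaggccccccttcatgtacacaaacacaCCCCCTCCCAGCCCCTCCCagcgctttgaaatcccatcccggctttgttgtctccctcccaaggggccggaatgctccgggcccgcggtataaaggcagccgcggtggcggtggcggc
The match lies 118 to 100 bases before the start. Such letters, in G or C, occurred in 38.5% of 395 matched promoters of genes higher by at least 0.5, in 41.2% of 277 of those lower by at least 0.5 and in 34.3% of all 10772. Among 24 genes of G-quadruplex-binding proteins and helicases, 2 were higher and 4 lower, beside the same shares of all genes, with a median of -0.05. The largest called change was -0.27 for NPM1, a nucleolar chaperone at 2689 and 2507 CPM in the matrix state and 3187 and 3117 CPM in the CCN5 state.

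Other genes among the 15 lowest in the matrix state were MEST, PEG10, BEX1, L1CAM, CLDN11 and SMOC1. MEST, an imprinted hydrolase, stood at 59.6 and 71.9 CPM in the matrix state and 208 and 226 CPM in the CCN5 state (-1.72 ± 0.11, adjusted p = 1.4e-10). PEG10, an imprinted gene derived from a retrotransposon, was at 25.0 and 27.0 CPM in the matrix state and 85.2 and 98.2 CPM in the CCN5 state (-1.81 ± 0.11, adjusted p = 1.1e-10). BEX1, a small brain-expressed protein, was at 20.2 and 25.0 CPM in the matrix state and 94.9 and 94.7 CPM in the CCN5 state (-2.08 ± 0.12, adjusted p = 3.4e-11). The states did not overlap in these 3 genes, as in 53.8% of all genes tested, and in all 3 the CCN5 state lay above every other population. L1CAM, an adhesion molecule of neurons, was at 7.37 and 12.9 CPM in the matrix state and 43.4 and 59.7 CPM in the CCN5 state (-2.36 ± 0.18, adjusted p = 3.5e-09), against 31.6 to 42.6 CPM elsewhere. CLDN11, a tight-junction claudin, was at 24.3 and 18.0 CPM in the matrix state and 55.7 and 59.4 CPM in the CCN5 state (-1.41 ± 0.14, adjusted p = 2.9e-07). SMOC1, a matricellular protein, was at 12.5 and 13.3 CPM in the matrix state and 39.7 and 39.3 CPM in the CCN5 state (-1.61 ± 0.16, adjusted p = 2.6e-07). The CCN5 state was above every other population in 12 of the 15 genes lowest in the matrix state. Those 15 were chosen for being higher in the CCN5 state than in the matrix state. No share over all genes was computed, so nothing is read from the 12.

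Enzymes and a lysosomal protein followed. ADA, adenosine deaminase, stood at 11.5 and 14.1 CPM in the matrix state and 43.0 and 46.1 CPM in the CCN5 state (-1.80 ± 0.13, adjusted p = 1.3e-09). SMOX, spermine oxidase, was at 14.4 and 11.3 CPM in the matrix state and 34.3 and 35.7 CPM in the CCN5 state (-1.41 ± 0.16, adjusted p = 1.2e-06). CD68, a lysosomal protein, was at 19.2 and 16.03 CPM in the matrix state and 44.7 and 45.5 CPM in the CCN5 state (-1.33 ± 0.14, adjusted p = 5.7e-07). The matrix state lay within the range of the other populations in SMOX and CD68, and below all of them in ADA. GAS6, a ligand of receptor tyrosine kinases, was at 65.0 and 77.8 CPM in the matrix state and 157 and 182 CPM in the CCN5 state (-1.24 ± 0.08, adjusted p = 6.0e-11). IL11, a cytokine, was at 5.77 and 10.6 CPM in the matrix state and 20.3 and 22.5 CPM in the CCN5 state (-1.42 ± 0.22, adjusted p = 7.9e-05).

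The keratins KRT81 and KRT8 were lower in the matrix state, and the rest of the pool lay above both states. KRT81, a hair keratin, stood at 175 and 213 CPM in the matrix state and 532 and 482 CPM in the CCN5 state (-1.38 ± 0.10, adjusted p = 1.9e-09), against 811 to 3047 CPM in the other populations. KRT8, of simple epithelia, was at 325 and 330.3 CPM in the matrix state and 621 and 519 CPM in the CCN5 state (-0.79 ± 0.08, adjusted p = 2.6e-07), against 1254 to 3146 CPM elsewhere. EEF1A2, an elongation factor of muscle and brain, was at 11.5 and 24.6 CPM in the matrix state and 50.5 and 49.8 CPM in the CCN5 state (-1.52 ± 0.20, adjusted p = 1.2e-05), with 36.0 to 203 CPM in the other populations. The 39 epithelial genes summed to 2910 and 3105 CPM in the matrix state, 4190.1 and 3362 CPM in the CCN5 state and 9796 and 14139 CPM in low cells, against 10889 to 23413 CPM in the other populations, and cells with at least 2 UMIs of EPCAM and CDH1 together made up 10.7 and 9.01% of the matrix state and 12.9 and 7.41% of the CCN5 state. Without those cells, a setting chosen after seeing the data, KRT8 stood at -0.99, KRT81 at -1.77 and EEF1A2 at -2.42, and all 3 passed. Of the 39 epithelial genes 3 were higher and 3 lower in the matrix state, where 7.93% of all genes were higher and 7.26% lower. DSC3 (1.18 ± 0.30, adjusted p = 0.0092) and DSP (0.57 ± 0.15, adjusted p = 0.0090), both of desmosomes, were among the higher ones. KRT8 and KRT18 (-0.60 ± 0.10, adjusted p = 0.00013) were among the lower ones. Of 18 basal genes none was called, with KRT14 at 131 and 102 CPM in the matrix state and 113 and 73.8 CPM in the CCN5 state and KRT5 at 88.7 and 49.6 CPM in the matrix state and 69.2 and 57.3 CPM in the CCN5 state. The call of KRT14 (0.33 ± 0.20, adjusted p = 0.29) depended on the setting. It passed without the cells with EPCAM and CDH1 UMIs (0.69, adjusted p = 8.06e-05), with cells thinned (0.63, adjusted p = 0.011), with only the 4 sums of the states (0.35, adjusted p = 0.022) and with no filter on low counts (0.26, adjusted p = 0.0023). It turned to -0.24 when cells were assigned by their top barcode (adjusted p = 0.47).

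Genes of the p53 response were higher in 11 of 29 cases and lower in 1, with a median of 0.41, where 7.93% of all genes were higher and 7.26% lower. Single cells, however, gave much of the UMIs of its leading members. GDF15, a stress cytokine, had the highest log2 fold change of the 15 genes named by size, with 61.2 and 113 CPM in the matrix state and 14.4 and 16.9 CPM in the CCN5 state (2.45 ± 0.17, adjusted p = 6.8e-10). A single cell in each library gave 66.5 and 42.9% of the matrix-state UMIs of GDF15, and without the highest cell of each sum the log2 fold change was 1.91. CDKN1A, the cell-cycle inhibitor p21, stood at 127 and 554 CPM in the matrix state and 142 and 162.5 CPM in the CCN5 state, so the libraries differed in direction, and its log2 fold change (1.09 ± 0.28, adjusted p = 0.0092) was -0.16 in library 1 alone. MDM2, the ubiquitin ligase of p53, was at 50.6 and 57.8 CPM in the matrix state and 27.3 and 27.2 CPM in the CCN5 state (0.99 ± 0.12, adjusted p = 2.4e-06), with 31.0 and 18.2% of the matrix-state UMIs from 1 cell of each library. FAS, a death receptor, was at 19.9 and 25.0 CPM in the matrix state and 12.1 and 15.8 CPM in the CCN5 state (0.69 ± 0.15, adjusted p = 0.0027). BAX, a mitochondrial death protein, was at 180.3 and 215 CPM in the matrix state and 160.0 and 169 CPM in the CCN5 state (0.26 ± 0.07, adjusted p = 0.0068).

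Of 41 S-phase genes 7 were lower and none higher, with a median of -0.04, and of 54 G2 and M genes 4 were higher and 6 lower, where 7.93% of all genes were higher and 7.26% lower. MKI67, a marker of cycling cells, stood at 264 and 288 CPM in the matrix state and 319 and 375 CPM in the CCN5 state (-0.32 ± 0.07, adjusted p = 0.0026). RRM2, a subunit of ribonucleotide reductase, was at 341 and 327 CPM in the matrix state and 469 and 478 CPM in the CCN5 state (-0.50 ± 0.05, adjusted p = 2.9e-07). Both were lower in the matrix state without overlap, as in 53.8% of all genes tested for either direction. TOP2A, a topoisomerase of dividing cells, was at 248 and 263 CPM in the matrix state and 217 and 235 CPM in the CCN5 state (adjusted p = 0.12). The median share of UMIs from the G2 and M list was 0.701 and 0.614% in the matrix state and 0.750 and 0.772% in the CCN5 state.

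Sterol genes moved both ways, with 11 of 28 higher and 5 lower, where 7.93% of all genes were higher and 7.26% lower. SQLE, squalene epoxidase, was at 160.5 and 183 CPM in the matrix state and 108 and 96.7 CPM in the CCN5 state (0.74 ± 0.08, adjusted p = 2.7e-07). INSIG1, which restrains sterol synthesis, was at 191 and 217 CPM in the matrix state and 333 and 356 CPM in the CCN5 state (-0.75 ± 0.07, adjusted p = 4.0e-08). Among metallothioneins, which bind zinc, MT2A was higher and MT1X, MT1F and MT1G lower: MT1G stood at 65.3 and 66.8 CPM in the matrix state and 118 and 110.5 CPM in the CCN5 state (-0.79 ± 0.08, adjusted p = 1.7e-07). In further lists, 8 of 28 immediate early genes were higher and 4 lower, with EGR1 at 247 and 254 CPM in the matrix state and 167 and 177 CPM in the CCN5 state (0.56 ± 0.08, adjusted p = 2.4e-05), and 7 of 22 glucocorticoid targets were higher and 1 lower. Of 30 interferon-stimulated genes 3 were higher and 0 lower, of 17 antigen presentation genes 2 were higher and 3 lower, and of 28 inflammatory cytokines 2 were higher and 1 lower. With 7.93% of all genes higher and 7.26% lower, nothing is read from these 3 counts. YAP targets showed 2 higher and 5 lower of 20, and F3, tissue factor, was at 34.3 and 31.3 CPM in the matrix state and 74.8 and 76.8 CPM in the CCN5 state (-1.19 ± 0.12, adjusted p = 2.9e-07), below the 244 to 429 CPM of the other populations.

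Along the ratio of the gate sums, levels changed by steps. COL1A1 stood at 92.0, 169.6, 254, 389 and 496 CPM in library 1 over 5 bins of the ratio, and at 101, 239, 306, 524 and 694 CPM in library 2. DKK1 stood at 443, 201, 143, 114 and 102 CPM in library 1 and at 432, 230.4, 151, 129.9 and 97.8 CPM in library 2. COL1A1 was thus higher in each further bin of both libraries, while most of the difference of DKK1 lay between the lowest bin and the next. IGFBP2 had 199 CPM in the lowest bin and 642 in the next in library 1, and 174 and 767 in library 2. Over the 30 genes named by size, 9 were ordered over all 5 bins in both libraries. Mixed cells lay between the states in both libraries in 27. No share over all genes was computed for the 9 or the 27. Genes chosen for a large difference between the states, and cells grouped by the gate ratio, make such values likely. Nothing is read from either count.

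**Figure D5:**
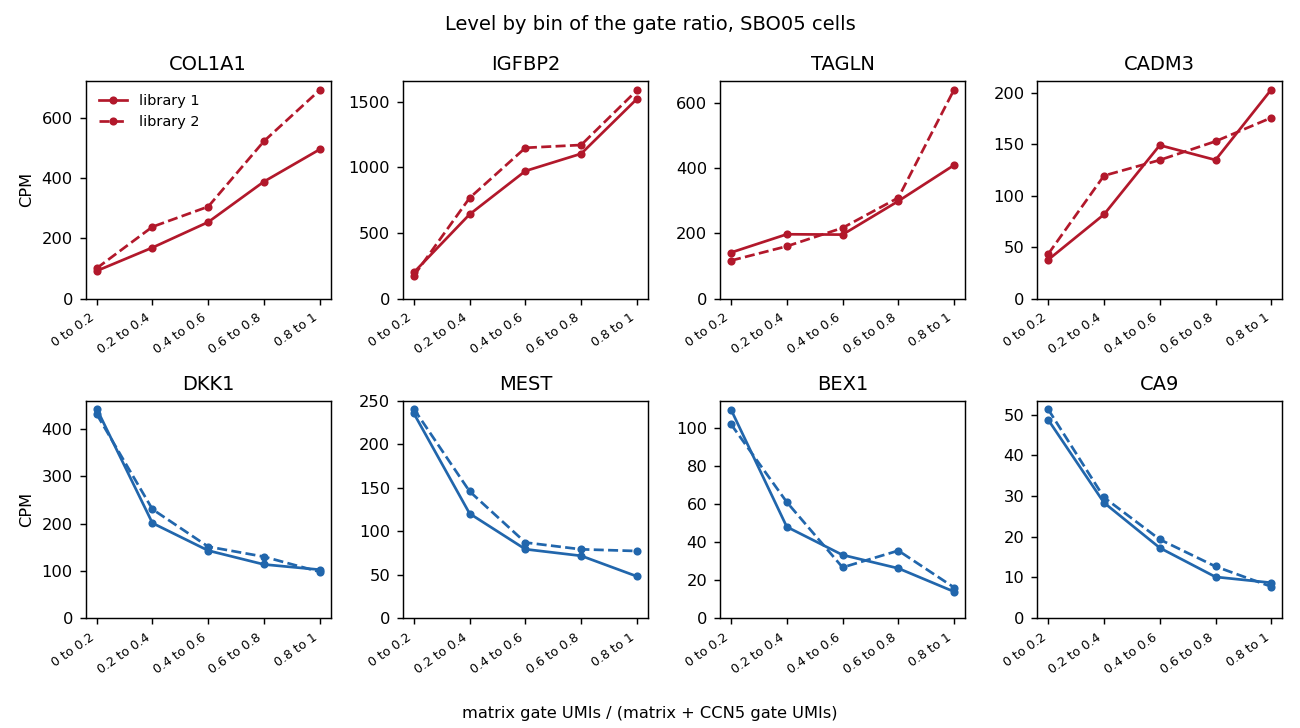
CPM (vertical axes, from 0) of 4 genes higher (top, red) and 4 lower (bottom, blue) in the matrix state over 5 bins of the ratio of matrix gate UMIs to all gate UMIs, with solid lines for library 1 and dashed lines for library 2. COL1A1 climbs in every step, to 496 and 694 CPM, whereas DKK1 and MEST drop most between the lowest bin and the next.

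The same gate was applied to cells with no assigned barcode, whose sample of origin is not known, so they are not independent of the gate genes but are other cells. SBO05 cells may be among them. There 62 and 52 cells passed the matrix gate and 266 and 257 the CCN5 gate. Of 11102 genes tested, 867 (7.81%) were higher and 737 (6.64%) lower in the matrix gate. Of the 575 genes higher by at least 0.5 in SBO05, 455 were tested there, 429 had the same direction and 223 were called. Of the 381 lower ones, 354 were tested, 306 had the same direction and 125 were called. Use of the same gate makes a shared direction likely. No share of shared directions over all genes was computed, so nothing is read from the counts of direction. COL1A1 had a log2 fold change of 2.64 there, IGFBP2 of 3.16, CA9 of -2.69, BNIP3 of -2.01 and DKK1 of -1.79. Of these, IGFBP2 and BNIP3 differed from SBO05 in a test of the difference itself (adjusted p = 0.00031 and 0.017). KRT8, KRT18, KRT81 and EEF1A2 went the other way, at 0.51, 0.59, 0.45 and 0.56, and each differed from SBO05 in that test (adjusted p of 2.3e-05, 0.0018, 1.2e-07 and 0.000285).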

How the data were processed

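Droplet libraries of pooled, SBO-labelled HMLE cells were deposited as raw UMI counts per gene and barcode, made by the authors with Cell Ranger 6.0.2, bcl2fastq 2.20.0.422 and Seurat 4.1.0 on hg38, per the submitters' processing notes. The deposited counts held 179421284 and 139331790 gene UMIs in libraries 1 and 2. Kept cells had 1000 or more genes and no more than 15% mitochondrial UMIs, and were assigned with HTODemux (Seurat 5.3.0, quantile 0.99). No doublet caller was run beyond removing cells with more than 1 barcode. UMIs were summed per group and library into 16 sums of 8 groups. These sums were filtered with filterByExpr, scaled with TMM and tested with edgeR 4.0.16 (quasi-likelihood, library as a block, 7 residual degrees of freedom, Benjamini-Hochberg adjustment over all genes). Fold changes are matrix over CCN5 state. On simulated data for this comparison (13948 genes), 58% of genes changed by 0.5 and 94% of those changed by 1 on the log2 scale were called, with 8 false among 160 calls. The simulation gave every gene the same spread, below the fitted common coefficient of variation of 3.49%. It had no library effect, no gate and no single outlying cells, so its rates are not the error rates of the real comparison. Libraries are shared preparations of the pool, and deviations of the states in the same library correlated at 0.04 over 6171 genes.

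Genes were named where they were in the gate, among the 15 highest or 15 lowest called with at least 20 CPM and 1 direction in both libraries, in a fixed panel, or among up to 4 leading members of a list at 5 CPM or more. Other list members were named after their values were seen. A gene of the panel is not reported here. The members, gene lists and tests were chosen with earlier results of these data known. Alternatives changed scaling, filter, test (DESeq2 1.42.0), groups, block, gate, depth, assignment and cells.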

Additional observations from a re-analysis of the deposited data

Results flagged for a closer look

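In cells with no assigned barcode, the contrast of the gates differed from that in SBO05 by a test of the difference itself for 104 of 12167 genes, on 3 residual degrees of freedom. Among the genes named by rule and the list genes called in SBO05, the log2 difference (cells with no assigned barcode minus SBO05) was positive for EEF1A2 (2.06), KRT81 (1.83), SFRP1 (1.65), L1CAM (1.49), DDR1 (1.47), KRT8 (1.29), CD24 (1.23), TNC (1.20), KRT18 (1.17), PLAUR (1.09), F3 (0.96), SERPINE2 (0.96), TAP1 (0.96) and IGFBP2 (0.88). It was negative for VIM (-0.52), MT2A (-0.53), IGFBP4 (-0.59), MVD (-0.62) and BNIP3 (-0.72). The populations that make up the cells with no barcode are not known, and their part in these differences was not tested.

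Libraries 3 and 4 were taken as the other pool, without SBO05. Their cells were not assigned to barcodes here, so the absence of SBO05 cells among them was not checked. The matrix gate was passed by 14.5% of SBO05 cells, against 1.04% of the kept cells of library 3 and 1.48% of library 4. The CCN5 gate was passed by 59.1% of SBO05 cells, against 5.41% of the kept cells of library 3 and 8.19% of library 4.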

How the results depend on the processing

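The number of genes called depended on the gate and on depth. Against 2196 genes called (1146 higher, 1050 lower), the smaller gate of 6 genes gave 4401 (2110 and 2291), the gate without KCNMA1, added after seeing the data, 4596 (2351 and 2245), and cells thinned to equal depth 1278 (652 and 626). With no filter on low counts 1733 genes were lower and 33.4% of the calls were higher, against 52.2%, and with only the 4 sums of the states 665 were lower. At a difference of at least 0.5, the smaller gate gave 1069 higher and 815 lower, the gate without KCNMA1 1222 and 782, thinning 374 higher, and no filter 646 lower. Without the replicate block 1738 genes were called. The matrix state took 7.99% of SBO05 cells under the stricter gate, 30.9% under the smaller gate, 34.01% without KCNMA1, 15.6% thinned, 15.2% by the top barcode, 14.7% with the stricter cell filter, 14.6% without shared barcodes and 14.7% without cells with EPCAM and CDH1 UMIs. The CCN5 state took 43.5%, 32.0%, 36.4% and 56.1% under the first 4 of these. Within 1 library the shares were 14.4 to 14.5% and 58.7 to 59.7%. Under the smaller gate and the gate without KCNMA1, direction turned for CCN1 (-0.31 and -0.23), CCN2 (-0.072 and -0.041), COL5A1 (-0.31 and -0.22), SPARC (-0.10 and -0.015), TGFBI (-0.20 and -0.19) and VIM (0.40 and 0.43). CDKN1A was at -0.16 in library 1 alone and 1.76 in library 2 alone, and GTSE1 at -0.046 without the third of cells highest in G2 and M UMIs. The cause was not tested. COL1A1 stayed between 1.62 and 2.56 and DKK1 between -2.27 and -1.58 under every alternative run. With 2 loads of 1 culture, no value here measures spread between cultures.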
